A study of Mus musculus with 6 samples.

Results

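Nuclear transport receptors were compared between αTC1 cells treated with the SMNDC1 inhibitor G786-1089 and cells treated with the solvent DMSO. The set holds 10 of the 55487 genes in the deposited tables: the importin α genes Kpna1, Kpna2, Kpna3, Kpna4 and Kpna6, the importin β gene Kpnb1, the transportins Tnpo1 and Tnpo3, the exportin Xpo1 and the GTPase gene Ran. It was chosen by the result for Kpna2, which had the smallest p of the 15082 genes that could be tested, so what is given for Kpna2 is a description without a test. The other 9 genes were picked by name, with results of this comparison already known.

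αTC1 is a clonal mouse glucagonoma line, that is, a tumour line of glucagon-producing pancreatic α cells, and both groups were wild type. SMNDC1 is a splicing factor whose Tudor domain binds methylated arginine. The sequencing was done to see what the inhibitor does to RNA in these cells. The compound taken here to be this inhibitor is called non-selective in the paper. In the paper's imaging it lowered the intensity of SMN, the SMNDC1 paralog with a similar Tudor domain, and raised its cytoplasmic spots. More cells also carried cell death markers, though most cells did not, and longer treatment killed cells. Which changes in RNA come from blocking SMNDC1, from SMN or from cell death was not tested. There were 3 libraries with the inhibitor and 3 with DMSO, made by Smart-seq2, which primes on poly(A) tails and does not keep the strand. The labels give no dose, duration or batch. For its cell culture work in general, the study states that a batch of cells was divided among the treatments anew in each replicate and that a replicate was handled as a unit, so libraries may be paired by replicate. The columns carry the letters A to C, and it is not stated that these letters mark those replicates, so results of a fit with the letter as a block are given where they differ. The p-values measure the spread between replicates of a single line.

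Proteins enter and leave the nucleus through nuclear pores bound to transport receptors of the karyopherin family. Importin α adaptors recognise the classical nuclear localisation signal of a cargo and hand it to importin β, transportins carry other cargoes without an adaptor, and exportins carry cargoes with a nuclear export signal back to the cytoplasm. The direction is set by Ran, a small GTPase that is held in its GTP form in the nucleus and its GDP form in the cytoplasm: Ran-GTP releases cargo from importins and is required for cargo to bind exportins.

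The libraries held 59070705 to 94747943 counts. Normalisation factors were 1.06 to 1.10 with the inhibitor and 0.921 to 0.938 with DMSO. Smndc1 itself was found at 1.22 to 6.03 CPM (counts scaled to the library total and those factors) with the inhibitor and 1.71 to 2.78 CPM with DMSO, a log2 fold change of 0.84 ± 0.67 (SE, edgeR adjusted p = 0.481). Of the 8 α cell markers, 7 had a mean of at least 1 CPM. Their summed level was 4275 to 4972 CPM with the inhibitor and 22623 to 25229 CPM with DMSO, most of it from Gcg, the glucagon gene, at 3125 CPM against 21190 CPM. The markers of δ cells (Sst, Hhex) and PP cells (Ppy) had no counts. Summed markers of the other cell types were low: 4.82 to 10.99 against 9.02 to 15.4 CPM for β cells, 27.3 to 44.4 against 9.01 to 21.5 CPM for acinar cells, 8.05 to 19.5 against 5.78 to 8.55 CPM for immune cells, 0 to 0.25 against 1.63 to 4.91 CPM for fibroblasts and 0 to 2.14 against 0 to 1.40 CPM for endothelial cells. The part of these differences in the results that follow was not tested.

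All 10 genes passed the filter on low counts. With the inhibitor, Kpna2, which is not tested here, was lower in every library. Of the other 9 genes, Ran was lower and Xpo1 was higher at an adjusted p under 0.05 (edgeR's quasi-likelihood test, Benjamini-Hochberg adjustment over all tested genes), and 7 did not pass. Over all tested genes 14.8% passed, 7.8% lower and 6.98% higher. With the letter as a block 1232 genes passed in place of 2230, Ran and Xpo1 among them. The study's methods filter splicing events by the differential expression of their genes in DESeq2. The limits are an adjusted p up to 0.1 and a log2 fold change of 1 or more in size. Applied here to the edgeR values, this filter is looser on p and adds a limit on size. Ran, only just at -1.0006, and Xpo1 met it, as did 10.4% of tested genes. Under other processing choices Ran ran from -1.07 to -0.80 and Xpo1 from 0.82 to 1.33, on either side of the size limit. Log2 fold changes ran from -1.87 to 1.25 with a median of 0.40 (0.20 without inhibitor library A), against 0.04 over all tested genes; 6 were above 0 and 4 below. In 5 of the 10 genes the groups did not overlap in CPM, with 2 lower (Kpna2, Ran) and 3 higher (Kpnb1, Tnpo3, Xpo1); over all tested genes 36.7% did not overlap, 18.5% lower and 18.2% higher. Because the set was chosen on this comparison, nothing is read from these shares. In bulk RNA, fewer cells expressing a gene and less of its RNA per cell cannot be told apart.

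**Figure D1:**
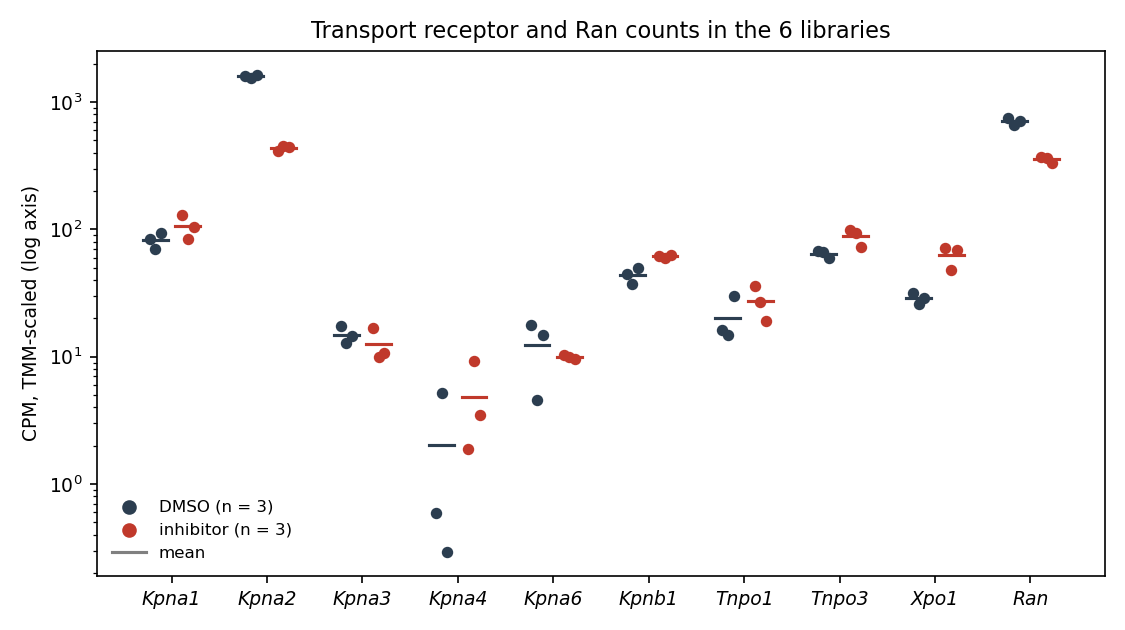
CPM of each of the 10 genes (log axis) in the 3 DMSO and the 3 inhibitor libraries, a point per library with the group mean as a line. Kpna2 fell from 1546 to 1642 CPM with DMSO to 416 to 453 CPM with the inhibitor, and the groups did not overlap for Ran, Xpo1, Kpnb1 and Tnpo3 either.

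Kpna2 (ENSMUSG00000018362; GRCm38 chr11:106988629-106999541, minus strand), the importin α best known for its high expression in dividing cells, had 416, 453 and 440 CPM in inhibitor libraries A, B and C and 1592, 1546 and 1642 CPM in DMSO libraries A, B and C. Every inhibitor library lay far below every DMSO library, and the spread within either group was small beside the gap. The means were 436 ± 18.7 CPM and 1593 ± 47.9 CPM (SD, n = 3), 3.65-fold lower with the inhibitor, and the fitted log2 fold change was -1.87 ± 0.06 (SE). This is the value that chose the set. Its promoter sequence is shown because Kpna2 leads the set, and those of Ran and Xpo1 because these genes passed the test; the sequences are from RefSeq on GRCm38.p6, without bases that lie in the gene's own annotated exons. Capitals mark a CHR element (cell cycle genes homology region, TTTGAA on either strand), a CCAAT box (CCAAT on either strand) or an E-box (CACGTG), motifs found in the promoters of many cell cycle and growth genes.
Kpna2, chr11:106999542-106999775, minus strand: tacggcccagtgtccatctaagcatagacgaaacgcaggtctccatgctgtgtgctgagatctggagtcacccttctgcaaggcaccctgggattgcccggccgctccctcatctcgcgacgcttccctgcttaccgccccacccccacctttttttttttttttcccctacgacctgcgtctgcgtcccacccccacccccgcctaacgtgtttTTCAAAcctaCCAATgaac
Ran, chr5:129019906-129020068, plus strand: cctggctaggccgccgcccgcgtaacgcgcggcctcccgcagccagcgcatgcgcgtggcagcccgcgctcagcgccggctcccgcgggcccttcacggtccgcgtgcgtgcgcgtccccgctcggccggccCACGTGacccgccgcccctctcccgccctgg
Xpo1, chr11:23255791-23256040, plus strand: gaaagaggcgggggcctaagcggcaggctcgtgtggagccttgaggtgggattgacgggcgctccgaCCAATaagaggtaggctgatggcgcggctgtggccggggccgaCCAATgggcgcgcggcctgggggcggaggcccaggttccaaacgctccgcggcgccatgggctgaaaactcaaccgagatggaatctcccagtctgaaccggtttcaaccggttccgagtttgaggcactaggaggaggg

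In the 250 bases before its RefSeq start, Kpna2 held a CHR element in reverse orientation, 35 to 30 bases before the start, and a CCAAT box 25 to 21 bases before it. The Ran window held an E-box 118 to 113 bases before the start, and that of Xpo1 held 2 CCAAT boxes, 183 to 179 and 140 to 136 bases before it. Of 32851 mouse promoter windows of the same length, 16.0% held a CHR element, 33.8% a CCAAT box and 6.0% an E-box on either strand. The remaining motif searched, the hypoxia response core ACGTG, is part of the E-box and was held by 16.6% of windows; it lay 43 to 39 bases before the start of Kpna2, and Ran had it inside the E-box on either strand and once more 46 to 42 bases before the start. Of the 10 genes 7 had a promoter window, and among the other 4 of these the CCAAT box was in the windows of Kpna4 (2 matches) and Kpnb1 (3 matches). These matches describe the letters and do not show that a factor binds there.

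Among the other importin α genes, which recognise the same kind of signal with different cargo preferences, no change passed the test. Kpna1 (chr16:35978750-36037131) had 130, 84.5 and 105 CPM with the inhibitor and 83.5, 70.3 and 93.9 CPM with DMSO. The groups overlapped, and the log2 fold change of 0.37 ± 0.19 (SE) had a 95% interval from -0.09 to 0.82 (edgeR adjusted p = 0.272). It was 0.20 without inhibitor library A and 0.51 without inhibitor library B. Kpna3 (chr14:61365211-61439874) had 16.9, 10.03 and 10.7 CPM with the inhibitor and 17.4, 12.8 and 14.6 CPM with DMSO, which also overlapped, with a log2 fold change of -0.25 ± 0.30 (adjusted p = 0.653) that ran from -0.53 without inhibitor library A to -0.12 without inhibitor library B. Kpna6 (chr4:129643980-129672767) had 10.3, 10.01 and 9.69 CPM with the inhibitor, all inside the DMSO range of 17.7, 4.56 and 14.8 CPM. Its log2 fold change was -0.30 ± 0.49 (adjusted p = 0.753) and turned to 0.05 without DMSO library A, against -0.70 without DMSO library B. Kpna4 (chr3:69067149-69127113) had the fewest reads, 16 to 922 counts per library, with 1.87, 9.21 and 3.46 CPM against 0.592, 5.20 and 0.294 CPM. Library B was the highest of its group in both treatments, and the log2 fold change of 1.25 ± 1.16 had an interval from -1.52 to 4.02 (adjusted p = 0.552). It was 0.39 without inhibitor library B and 3.44 without DMSO library B. For Kpna4 and Kpna6 a difference of the size seen for Ran lay within the interval, so a change of that size was not detectable.

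Per length, Kpna2 was by far the most abundant importin α transcript in either group. Its level was 623 ± 20.2 FPKM (counts scaled to gene length and by a factor per library; SD, n = 3) with DMSO and 170 ± 8.11 FPKM with the inhibitor. With DMSO, Kpna1 followed at 15.1 FPKM, Kpna3 at 3.37 FPKM, Kpna6 at 1.96 FPKM and Kpna4 at 0.211 FPKM. The summed level of the 5 genes was 645, 621 and 667 FPKM in the DMSO libraries and 191, 198 and 194 FPKM in the inhibitor libraries. Without Kpna2, the other 4 summed to 20.6 ± 3.19 FPKM with DMSO and 24.3 ± 4.51 FPKM with the inhibitor, and these libraries overlapped. The share of Kpna2 in the summed importin α level was 96.6, 97.3 and 96.6% in the DMSO libraries and 84.7, 89.8 and 88.0% in the inhibitor libraries, while that of Kpna1 was 2.33 ± 0.26% with DMSO and 9.98 ± 2.28% with the inhibitor. Kpna2 thus held most of the importin α RNA in every library, on the FPKM scale.

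**Figure D2:**
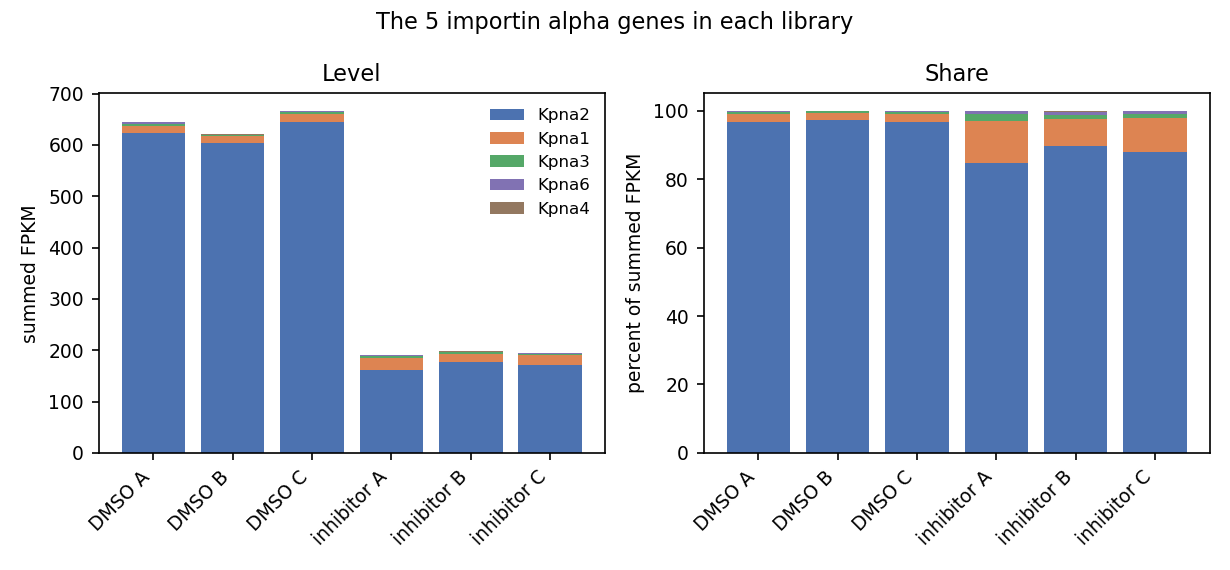
Summed FPKM of the 5 importin α genes in each library (left) and each gene's percentage of that sum (right), stacked by gene. The sum fell from 621 to 667 FPKM with DMSO to 191 to 198 FPKM with the inhibitor, and Kpna2 remained the largest part at 84.7 to 89.8% of it.

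Kpnb1 (ENSMUSG00000001440; chr11:97159714-97187881, minus strand), the importin β that carries importin α with its cargo through the pore, had 62.0, 59.5 and 63.2 CPM with the inhibitor and 44.4, 37.4 and 49.4 CPM with DMSO. The inhibitor libraries were all higher and closer together than the DMSO libraries. The log2 fold change was 0.49 ± 0.15 (SE) with a 95% interval from 0.13 to 0.85, and it did not pass the adjusted threshold (edgeR adjusted p = 0.0789). It passed with DESeq2 (0.49, adjusted p = 0.0108) and with scaling by library size alone (0.70, adjusted p = 0.0243), and was 0.22 (adjusted p = 0.402) once a trend of fold change with gene length was removed. In its annotation 7.07% of exon bases are shared with the antisense gene Gm11583, which had no counts in any library; reads over these bases cannot be told apart without strand. The FPKM ratio of Kpna2 to Kpnb1, adaptor to carrier, was 90.0, 104 and 83.5 with DMSO and 16.8, 19.1 and 17.5 with the inhibitor, and between the groups the mean of Kpna2 was 3.65-fold lower while that of Kpnb1 was 1.41-fold higher.

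Of the transportins, Tnpo3 imports arginine-serine-rich splicing factors and Tnpo1 imports RNA-binding proteins with a PY signal. Tnpo3 (chr6:29540827-29609887, minus strand) had 99.3, 92.9 and 72.7 CPM with the inhibitor and 67.3, 66.3 and 60.1 CPM with DMSO. The groups did not overlap, though inhibitor library C came close to the DMSO libraries. The log2 fold change was 0.45 ± 0.15 (95% interval 0.09 to 0.81, edgeR adjusted p = 0.0994); without inhibitor library C it was 0.58 and passed (adjusted p = 0.0481), as it did with DESeq2 (adjusted p = 0.0289) and with scaling by library size alone (0.65, adjusted p = 0.0272). With the length trend removed it was 0.24 (adjusted p = 0.348). Irf5 overlaps 3.14% of its exon bases. Tnpo1 (chr13:98839019-98926384, minus strand) had 35.7, 27.1 and 19.2 CPM with the inhibitor and 16.3, 14.9 and 29.7 CPM with DMSO. Its groups overlapped widely, and the log2 fold change of 0.43 ± 0.36 did not pass (adjusted p = 0.501) and ran from 0.19 without inhibitor library A to 0.80 without DMSO library C.

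Xpo1 (ENSMUSG00000020290; chr11:23256041-23298249, plus strand), the main exportin for proteins with a leucine-rich nuclear export signal and an export factor for spliceosomal snRNAs, rose with the inhibitor. It had 71.4, 47.7 and 68.5 CPM with the inhibitor and 31.5, 25.8 and 29.2 CPM with DMSO. All inhibitor libraries were above all DMSO libraries, and inhibitor library B was the closest to them. The means of 62.5 ± 12.9 and 28.8 ± 2.88 CPM differed 2.17-fold, with a log2 fold change of 1.12 ± 0.20 (SE, 95% interval 0.64 to 1.60, edgeR adjusted p = 0.0139). The call sat close to the threshold: it was lost without inhibitor library C (1.05, adjusted p = 0.0514), without DMSO library B (1.04, adjusted p = 0.0551) and without DMSO library C (1.12, adjusted p = 0.0544). With the length trend removed the value was 0.83 and passed (adjusted p = 0.0379).

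Ran (ENSMUSG00000029430; chr5:129020069-129024323, plus strand) fell with the inhibitor. It had 368, 363 and 331 CPM with the inhibitor and 744, 666 and 715 CPM with DMSO. No library of either group came near the other group. Means of 354 ± 19.6 and 708 ± 39.6 CPM gave a 2.00-fold lower level, with a log2 fold change of -1.001 ± 0.08 (SE, 95% interval -1.18 to -0.82, edgeR adjusted p = 0.000568), the 117th smallest p of all tested genes. It passed in all 19 alternatives, with values from -1.07 to -0.80 and adjusted p of at most 0.0111. The FPKM ratio of Ran to Xpo1 was 54.3, 59.4 and 56.4 with DMSO and 11.8, 17.5 and 11.1 with the inhibitor, as Ran was lower and Xpo1 higher. With DMSO, Ran stood second among the 10 genes at 248 ± 14.1 FPKM, below Kpna2 and above Kpna1 (15.1 FPKM), Tnpo3 (13.9 FPKM), Kpnb1 (6.82 FPKM) and Xpo1 (4.38 FPKM). Kpna1 and Tnpo3 changed order between DMSO libraries, and so did Tnpo1 (2.18 FPKM) and Kpna6 (1.96 FPKM). The DMSO ranges of Xpo1 and Kpna3 (3.37 FPKM) overlapped, as did those of Kpna3 and Tnpo1. Within each DMSO library, though, Xpo1 was above Kpna3 and Kpna3 above Tnpo1.

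**Figure D3:**
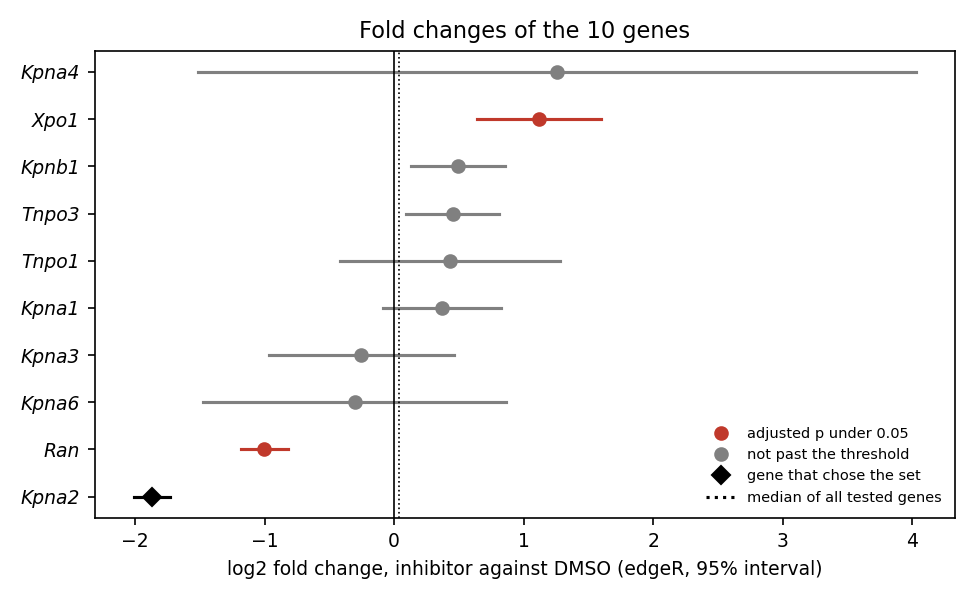
Log2 fold change of each gene, inhibitor against DMSO, with its 95% interval from edgeR (n = 3 against 3); red marks an adjusted p under 0.05, the black diamond is Kpna2, which chose the set, and the dotted line is the median of all tested genes. Xpo1 lay at 1.12 and Ran at -1.001 with intervals clear of 0, while the interval of Kpna4 spanned -1.52 to 4.02.

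Several annotated genes are near-identical copies of these transcripts, and their reads cannot be assigned with certainty. Kpna2 had 7 copies of at least 300 bases at 95% identity or more, which together held 29.98% as many counts as Kpna2. Gm10184 on chromosome 17 matched Kpna2 at 99.9% identity over 1968 bases and had 14.9 to 15.7% of its counts in every library. Gm10259 on chromosome 3 matched at 99.8% over 1590 bases and had 12.8 to 15.1%. For Ran the copy Gm13461 (97.3% over 662 bases) held 4.96 to 6.30% of its counts. Tnpo1 had the copy Gm6493, with 0.50 to 1.44% of its counts, and Tnpo3 shared stretches of 116 to 255 bases with 26 other genes. With the copies added to their parents, an alternative chosen after seeing the data, the log2 fold change of Kpna2 was -1.85, that of Ran -0.997 (edgeR adjusted p = 0.000534) and that of Tnpo1 0.43.

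The 5 genes whose profile was most like that of Kpna2 were sought among 7899 genes by the root mean square distance between centred log2 CPM profiles over the 6 libraries, with a median distance of 0.988. They were Gm10184 (0.027), the long non-coding RNA gene 3930402G23Rik (0.043), Pttg1 (0.071), the processed pseudogene Gm7172 (0.071) and Gm10259 (0.072). Of these, Gm10184 and Gm10259 are the copies of Kpna2 named above. Pttg1, which encodes securin, the inhibitor of separase until anaphase, had 189, 195 and 174 CPM with the inhibitor and 661, 675 and 654 CPM with DMSO. Because Pttg1 was picked for its likeness to Kpna2, a similar fall follows from the choice and is only described.

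Genes of the Ran cycle that passed the test were all lower. Of 7 listed genes 6 could be tested, of which 3 fell and 0 rose (50%, against 14.8% of all tested genes). The median log2 fold change was -0.37. Ranbp1, which helps Ran-GTP come off transport complexes, had 351, 371 and 398 CPM with the inhibitor and 579, 583 and 579 CPM with DMSO (log2 fold change -0.64 ± 0.07, edgeR adjusted p = 0.00224). Rangap1, which triggers GTP hydrolysis by Ran in the cytoplasm, had 437, 465 and 416 CPM against 620, 604 and 676 CPM (-0.53 ± 0.08, adjusted p = 0.00627). Nutf2, the carrier that returns Ran-GDP to the nucleus, had 83.6, 95.2 and 78.2 CPM against 143, 143 and 137 CPM (-0.72 ± 0.11, adjusted p = 0.00807). None of these 3 genes overlapped between groups, as held for 36.7% of all tested genes, 18.5% lower and 18.2% higher. Ranbp2 did not overlap either, but lay higher and did not pass. It had 18.3, 14.8 and 13.7 CPM against 10.4, 11.9 and 8.54 CPM (0.60 ± 0.26, adjusted p = 0.194). With the letter as a block and the length trend removed, Nutf2 lost its call (-0.56, adjusted p = 0.0716). Rcc1, the nuclear exchange factor that loads Ran with GTP, gave -0.22 ± 0.29 (adjusted p = 0.703) and Ranbp3, a cofactor of Xpo1, -0.09 ± 0.13 (adjusted p = 0.731), and both overlapped.

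Of 15 listed karyopherins outside the set, 14 could be tested. Of these 2 rose, 0 fell and 12 did not pass, a share of 14.3% called that is close to the 14.8% of all tested genes, with a median log2 fold change of -0.02. Xpot, the tRNA exportin, had 11.1, 19.5 and 12.5 CPM with the inhibitor and 4.998, 3.73 and 4.64 CPM with DMSO (1.69 ± 0.34, edgeR adjusted p = 0.0203). Ipo9, an importin for histones and ribosomal proteins, had 128, 149 and 125 CPM against 74.8, 93.8 and 94.8 CPM (0.61 ± 0.14, adjusted p = 0.0307). Neither gene overlapped between groups, as held for 36.7% of all tested genes. Ipo9 lost its call whichever library was left out (adjusted p 0.0603 to 0.0843). With the length trend removed Ipo9 did not pass either (0.32, adjusted p = 0.189), and the list had 1 gene called higher and 1 lower. Xpot lost its call without inhibitor library B (1.41, adjusted p = 0.0592) and without DMSO library A (adjusted p = 0.0623), B (0.0725) or C (0.0692). With the replicate block by letter neither passed (Xpot 1.65, adjusted p = 0.0838; Ipo9 0.61, adjusted p = 0.0615). Cse1l, the exportin that returns importin α to the cytoplasm, gave -0.33 ± 0.15 (adjusted p = 0.201) with overlapping groups, and -0.49 without inhibitor library B (adjusted p = 0.049). The FPKM ratio of Kpna2 to Cse1l was 17.3 ± 0.52 with DMSO and 6.03 ± 0.82 with the inhibitor.

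Nucleoporins, the building blocks of the pore, gave 5 genes that rose and 1 that fell of 29 tested (20.7%). Over all tested genes 14.8% passed, 7.8% lower and 6.98% higher. The median log2 fold change of the list was 0.28, against 0.04 over all tested genes. With the length trend removed 6 nucleoporins passed, 4 higher and 2 lower. With the letter as a block 4 nucleoporins passed, 3 higher and 1 lower, where 1232 of all 15082 tested genes passed. Nup50, a mobile nucleoporin that helps importin α release its cargo, had 163, 216 and 203 CPM with the inhibitor and 84.0, 70.5 and 84.5 CPM with DMSO (1.28 ± 0.14, edgeR adjusted p = 0.00238). Nup43, of the Y complex that scaffolds the pore, was at 0.86 ± 0.14 (adjusted p = 0.0108), and Rae1, an mRNA export factor at the pore, at 0.88 ± 0.16 (adjusted p = 0.0148). Sec13, shared by the Y complex and the COPII coat, had 168, 178 and 138 CPM against 315, 305 and 370 CPM (-1.03 ± 0.13, adjusted p = 0.00369). The call of Rae1 was lost without DMSO library A (0.78, adjusted p = 0.0561) and without DMSO library B (0.86, adjusted p = 0.0606). That of Sec13 was lost with the letter as a block and the length trend removed (-0.90, adjusted p = 0.051). Nup85 (-0.02, adjusted p = 0.896) and Tpr (0.28, adjusted p = 0.227) were the most abundant that did not pass; without inhibitor library C Tpr was at 0.42 and passed (adjusted p = 0.039).

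The next lists hold RNA export factors, and the factors that take snRNAs out of the nucleus through Xpo1, assemble them into snRNPs and bring these back through Kpnb1. Of 18 RNA export genes 1 rose and 0 fell (5.6%, against 14.8% of all tested genes; median 0.21): Nxf1, the main mRNA export receptor, at 0.52 ± 0.12 (edgeR adjusted p = 0.0321), whose call was lost whichever library was left out (adjusted p 0.0603 to 0.0942) and with the replicate block (adjusted p = 0.101). With the length trend removed Nxf1 lost its call too (0.335, adjusted p = 0.115), while Ddx39 passed, lower (-0.46, adjusted p = 0.0423). In the fit reported Ddx39 gave -0.25 (adjusted p = 0.231) and Nxt1, the partner of Nxf1, 0.54 (adjusted p = 0.145). Of 8 genes in the snRNP transport list, which also holds the splicing factor Smndc1, 2 rose and 0 fell (25%, against the same 14.8%; median 0.32). They were Gemin2 (0.82 ± 0.15, adjusted p = 0.0147) and Ddx20 (0.97 ± 0.24, adjusted p = 0.0405), both of the SMN complex that assembles snRNPs. Gemin2 lost its call without inhibitor library C (0.75, adjusted p = 0.0515), DMSO library A (0.80, adjusted p = 0.0612) or DMSO library B (0.74, adjusted p = 0.0541). For Ddx20 the call was lost without inhibitor library A (adjusted p = 0.112) or C (0.116) and without DMSO library A (0.118), B (0.124) or C (0.0846), as well as with the replicate block (0.95, adjusted p = 0.059). It was also lost with the length trend removed (0.87, adjusted p = 0.0649). Phax, the adaptor between snRNA and Xpo1, was at 0.07 ± 0.19 (adjusted p = 0.859) and Gemin5, which binds snRNAs, at 0.56 ± 0.35 (adjusted p = 0.361).

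Kpna2 is commonly counted among the genes that peak in G2 and mitosis, so a list of such genes is set beside it. Of its 27 genes, 14 fell (51.9%) and 0 rose with the inhibitor. Over all tested genes 14.8% passed, 7.8% lower and 6.98% higher. The median log2 fold change of the list was -0.52, against 0.04 over all tested genes. The filter from the study's methods, applied to the edgeR values, was met by 4 genes of the list and by 10.4% of all tested genes. Plk1, the mitotic kinase, had 37.0, 35.0 and 43.8 CPM with the inhibitor and 162, 146 and 139 CPM with DMSO (-1.95 ± 0.14, edgeR adjusted p = 0.000436). Cenpa, the centromeric histone, and Birc5, survivin, each gave -0.93 (adjusted p = 0.000526 and 0.000799). Ccna2 (-0.77, adjusted p = 0.0561) and Cdc20 (-0.49, adjusted p = 0.0595) did not pass; without inhibitor library A Ccna2 was at -1.002 and passed (adjusted p = 0.0256), as it did without inhibitor library B (-0.57, adjusted p = 0.0497). The number of called genes was 8 without inhibitor library C or without DMSO library C, and 9 with the replicate block. Of all tested genes these fits called 1458 of 15899, 1265 of 16017 and 1232 of 15082. Summed over the list, the level was 4185 to 4466 CPM in the inhibitor libraries and 6704 to 7056 CPM in the DMSO libraries. Its part in the lower levels of Kpna2 and Ran was not tested.

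**Figure D4:**
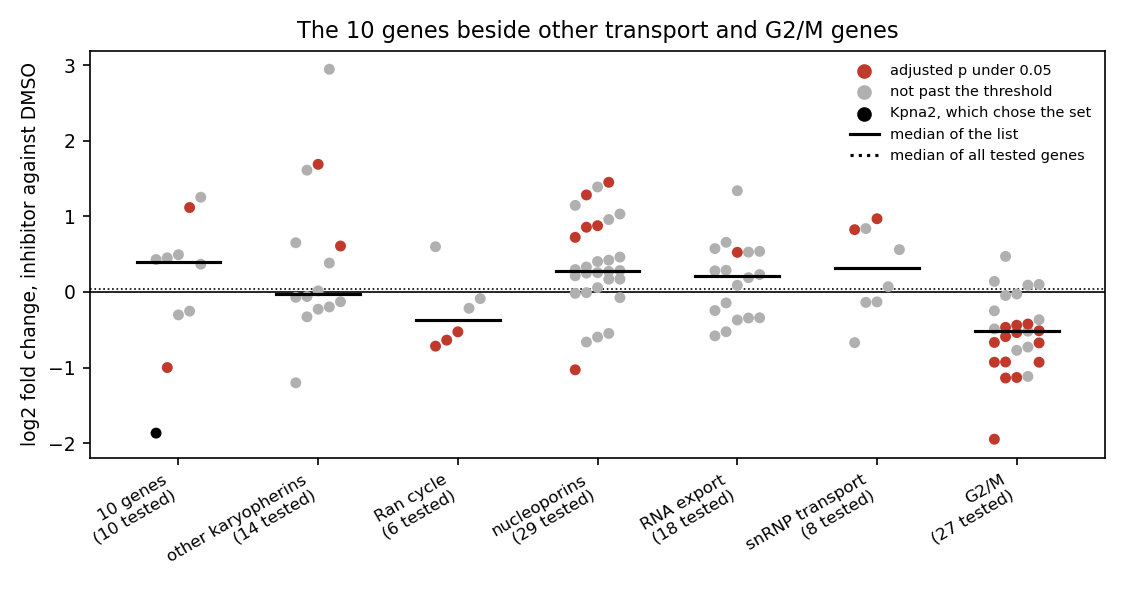
Log2 fold changes, inhibitor against DMSO, of every tested gene in the set of 10, the other transport lists and the G2/M list, with list medians as bars, red for an adjusted p under 0.05 and black for Kpna2; points are spread sideways only for legibility. Calls in the Ran cycle (3 of 6) and G2/M (14 of 27) lists were all below 0, and 5 of the 6 called nucleoporins were above it. With the length trend removed 4 nucleoporins passed higher and 2 lower. Over all tested genes 14.8% passed, 7.8% lower and 6.98% higher.

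Fold changes moved with gene length over the whole table, and the set is uneven in length. With tested genes split by length into 4 equal bins, the median log2 fold change was -0.23, -0.03, 0.15 and 0.30 from the shortest bin to the longest. Kpna2 and Ran are in bin 2, Kpna3 and Tnpo3 in bin 3 and the other 6 genes in bin 4. With a trend on length removed within each library, the median of the 10 genes was 0.11, the value of Kpna2 was -1.89 and that of Ran was -1.07 (edgeR adjusted p = 0.00045). What lies behind the length trend was not tested.

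**Figure D5:**
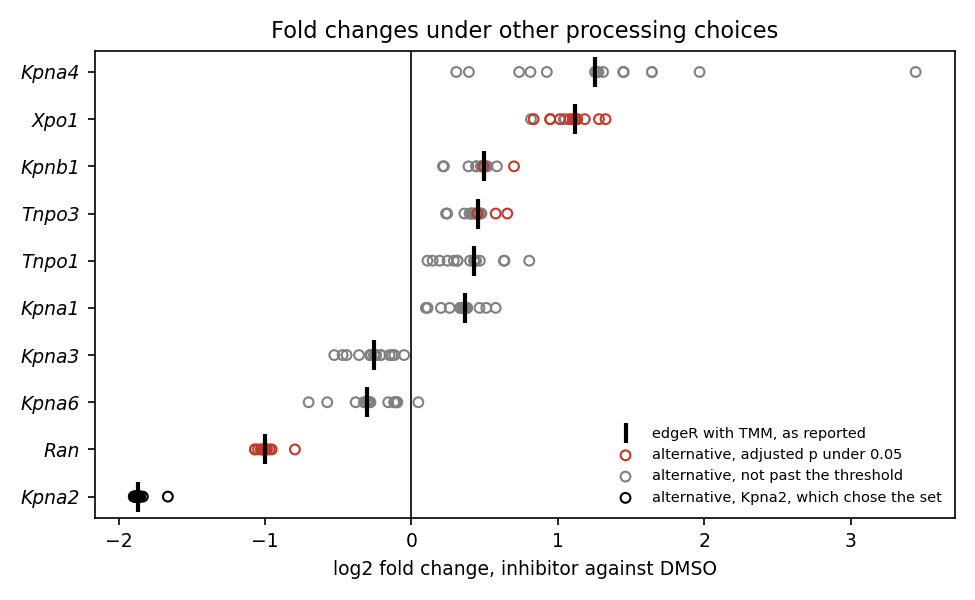
Log2 fold changes of the 10 genes as reported (black bars) and under each other processing choice (circles), red where the adjusted p was under 0.05, grey where it was not, and black circles for Kpna2, which chose the set. Ran stayed between -1.07 and -0.80, Xpo1 ran from 0.82 to 1.33 and passed in 14 of 18 alternatives, and Kpna4 spread from 0.31 to 3.44.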

How the data were processed

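RNA from αTC1 cells was sequenced as Smart-seq2 libraries with paired 100 bp reads. The paper describes sequencing for its compound 1, which was taken to be the labelled inhibitor. The authors aligned reads to GRCm38 with STAR and deposited raw counts per gene, taken over Ensembl transcripts without regard to strand and added up by gene; the submitters' processing notes name STAR 2.7.9a, Picard 2.19.2 and DESeq2 1.34.0. The authors also deposited FPKM values, whose making is not described; dividing a count by its FPKM gave factors between libraries that were equal for all genes. Column letters A to C are not in the labels, so libraries were tied to treatments only; a fit with the letter as a replicate block was an alternative.

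The set of 10 genes and the other lists were chosen with earlier results of these data known. The fit used edgeR 4.0.16 (R 4.3.3): filterByExpr (minimum count 10, minimum total 15), TMM factors, and the quasi-likelihood test of treatment with Benjamini-Hochberg adjustment at 0.05. Standard errors are the absolute log2 fold change over the square root of F. From each list other than the set, up to 3 genes per direction with the smallest p and the 2 most abundant that did not pass were named, with Smndc1, Gcg and the 5 profiles nearest to Kpna2 (average log2 CPM of at least 3). The scripts were tested on simulated data. Alternatives used DESeq2 1.42.0, other scalings and filters, thinned counts, length offsets, limma 3.58.1 on log2(FPKM + 1) or log2(FPKM + 0.1), and the data without each library. Copies were found with blastn 2.17.0 among transcripts of GENCODE vM21, which gave the exons; the coordinates of the 10 genes there equalled those of the tables. An exact permutation test of 3 against 3 cannot go below p = 0.1 and was not used.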

Additional observations from a re-analysis of the deposited data

How the results depend on the processing

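Kpna2 chose the set and is not counted here. Of the other genes, Ran and Xpo1 passed in the fit reported. With DESeq2 and with scaling by library size alone, Kpnb1 and Tnpo3 were added, both higher. Ran passed whichever library was left out, and Xpo1 lost its call without inhibitor library C, DMSO library B or DMSO library C. Of 15082 tested genes, 2230 passed in the fit reported and 2426 with library size alone. The median log2 fold change of the set was 0.61 with library size alone, 0.11 with length offsets and 0.12 with the replicate block and length offsets, and 0.20 to 0.43 without single libraries (0.20 without inhibitor library A). Library size alone shifted the median of all tested genes from 0.04 to 0.25 and turned 1053 higher and 1177 lower genes into 1630 and 796. The number of all genes called was 3667 with DESeq2 and 1253 to 1556 without single libraries (1458 without inhibitor library C and 1253, 1318 and 1265 without DMSO libraries A, B and C).

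Whether the column letters pair the libraries is not stated; deviations from the group means of libraries with the same letter correlated at 0.0151, 0.00274 and 0.0251 for A, B and C. With the letters as a replicate block, 1232 genes passed, and 995 with length offsets as well; among the lists, the number was 0 for other karyopherins, 0 for RNA export, 1 for snRNP transport and 9 for G2/M, and with both corrections 0, 0, 1 and, for nucleoporins, 3. With both corrections the Ran cycle had 2 called genes and G2/M 12. Xpo1 (0.82, edgeR adjusted p = 0.0666), Sec13 (-0.90, adjusted p = 0.051) and Nutf2 (-0.56, adjusted p = 0.0716) then lost their calls. Xpo1 was at 1.10 (adjusted p = 0.0314) with the block alone. Among the genes named, the block alone ended the calls of Xpot, Ipo9, Nxf1 and Ddx20 and changed no other.

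For the other lists, DESeq2 called 4 other karyopherins, 11 nucleoporins and 5 RNA export genes. It called 3667 of all 15082 tested genes, against 2230 in the fit reported. Library size alone called 10 nucleoporins, 2 RNA export and 9 G2/M genes, and 2426 of all 15082 tested genes. Keeping every gene with at least 1 count gave 1 snRNP transport gene, and length offsets gave 2 RNA export genes (both lower) and 1 snRNP transport gene. These fits called 1834 of all 23783 and 2010 of all 15082 tested genes. With limma on FPKM, RNA export had 4 genes (pseudocount 1), 3 (pseudocount 0.1) or 0 (no filter), where other karyopherins had 0 and snRNP transport 1. Of all tested genes, limma called 2957 of 10610, 2861 of 10610 and 1883 of 23783 in that order. The study's filter, applied to the edgeR values, was met by 0 Ran cycle, 0 RNA export, 0 snRNP transport and 4 G2/M genes. Of all tested genes 10.4% met it. Without single libraries the ranges were 0 to 1 for other karyopherins, 3 to 3 for the Ran cycle, 4 to 6 for nucleoporins, 0 to 1 for RNA export, 0 to 2 for snRNP transport and 8 to 14 for G2/M. All genes called then numbered 1253 to 1556, against 2230 in the fit reported.

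Some values near 0 changed sign, none of them past the threshold: Ipo13, at -0.060 as reported, was 0.147 with library size alone and ran from -0.181 to 0.123 without single libraries (0.123 without inhibitor library B, 0.044 without DMSO library B). Ranbp3 was 0.116 with library size alone. Nup85 was 0.187 with library size alone and ran from -0.042 to 0.011 without single libraries. Tpr was -0.029 with length offsets and -0.041 with the block as well. Phax ran from -0.093 to 0.241 and Kpna6 from -0.702 to 0.047 without single libraries. Where no value above shows it, the cause was not tested. Reads without molecular identifiers are not independent molecules, and the spread between 3 libraries sets the precision.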
